A study of Mus musculus with 12 samples.

Results

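The comparison is of 3 RNA-seq libraries from tumours of wild-type C57BL/6 hosts given Salmonella intravenously with 3 libraries from tumours of wild-type C57BL/6 hosts given phosphate-buffered saline (PBS) by the same route. They were selected by their genotype and treatment labels and make up 6 of the 12 libraries of the series. All tumours were of MC38, a mouse colon cancer line of C57BL/6 origin, and all were taken 1 day after the injection. The other 6 libraries came from MC38 tumours in TLR4 knockout hosts under the same 2 treatments and are used here for the estimate of the spread and for a single comparison near the end. The labels name no Salmonella strain and no dose, and they do not say whether the tumour cells themselves carried an intact Tlr4. The libraries of a group are titled F-1, then M-1, then M-2, and values below are always given in that order. The labels do not say that they came from separate animals. The p-values therefore measure only the spread between libraries, taken over all groups of the series, which may be technical.

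TLR4 is the cell-surface receptor that, with MD-2 and CD14, recognises the lipopolysaccharide of Gram-negative bacteria such as Salmonella. Its adaptors lead to the activation of NF-kB and of interferon regulatory factors, and the genes induced first include chemokines of the CXC family that draw neutrophils out of the blood. Neutrophils are short-lived phagocytes that carry ready-made granules of antimicrobial proteins, and Salmonella injected into tumour-bearing mice is known to reach and colonise tumours.

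The deposited values behave as FPKM, fragment counts divided by gene length and by the size of the library, and the 6 wild-type libraries held 30514112 to 37835326 fragments. At this depth 3 fragments in a gene of 1 kb, the limit that a count of 0 allows, equalled 0.0793 to 0.0983 FPKM, which covers counting error only. Of 18609 listed genes, 12164 were tested, those that reached 0.5 FPKM in 3 or more of all 12 libraries. Differences are log2 fold changes, Salmonella minus PBS, of log2(FPKM / scaling factor + 0.5), which understates the change of low genes. A gene is said to have risen or fallen where limma, fitted to all 12 libraries, gave an adjusted p under 0.05. FPKM are printed as deposited, whereas statements on overlap between the groups refer to the scaled values. The tissue label was checked against marker genes. The epithelial markers Epcam, Krt8, Krt18 and Cdh1 lay under 0.5 FPKM in all 6 libraries, while Krt19 was at 0.0373 to 0.0571 FPKM under PBS and at 0.97, 2.13 and 0.0747 FPKM under Salmonella. The defining genes of epithelium were thus near absent from tumours labelled as colon cancer. Macrophage genes such as C1qa (94.4 to 295 FPKM) and the fibroblast gene Dcn (118 to 344 FPKM) were present in every library, whereas the liver genes Alb and Ttr were at 0. These are bulk samples, in which fewer cells of a type and less RNA per cell cannot be told apart.

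In wild-type hosts 2258 genes rose and 2071 fell, which is 18.6% and 17.0% of the genes tested. These shares are the background for every list count below. The rises were larger than the falls. Of the genes that rose, 699 did so by at least 1 on the log2 scale, 249 by at least 2 and 52 by at least 4, whereas 167 fell by at least 1, 13 by at least 2 and 0 by 3 or more. The median change was 0.68 among risen and -0.52 among fallen genes, and -0.01 over all genes tested. The 699 genes that rose by at least 1 took 3.4%, 3.6% and 3.6% of all FPKM in the PBS libraries and 10.2%, 14.9% and 7.4% in the Salmonella libraries. Of the tested genes, 45.5% showed no overlap between the 3 libraries of each treatment. Genes named below for the size of a change, a small p or a shift of mean FPKM were chosen among these. Their lack of overlap was thus fixed by the choice. When the change itself was tested against a floor of 1 (log2), 81 genes rose and 2 fell. With FPKM taken as deposited, the median of all tested genes shifted to -0.19, and 1500 genes rose and 3365 fell. A set of 72 tested genes reached 0.5 FPKM in the 3 Salmonella libraries and in no other library, and 69 of them rose, a number that the filter itself favours. Besides the neutrophil and vessel lists, 1 such gene is counted in each of the lists of acute-phase genes, iron handling, prostaglandins and leukotrienes, inflammasomes, Toll-like receptors, Wnt and skeletal muscle. The same holds for the lists of complement, metallothioneins and zinc transporters, leukocyte adhesion, and Schwann cells and nerve.

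**Figure D1:**
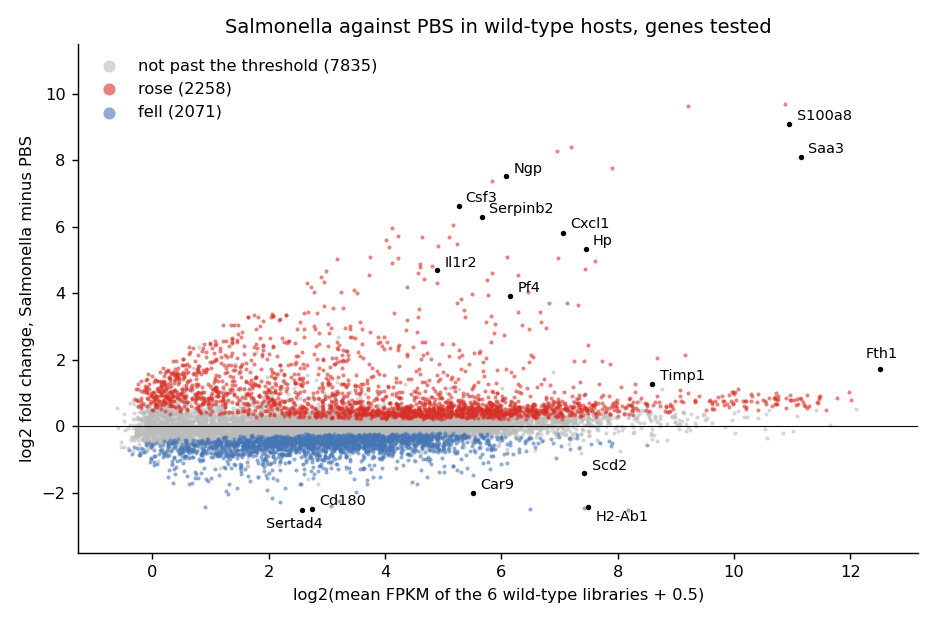
Each point is 1 of the 12164 genes tested. The horizontal axis gives log2(mean FPKM of the 6 wild-type libraries + 0.5) and the vertical axis the log2 fold change, Salmonella minus PBS, with risen genes in red, fallen genes in blue and some of the genes named in the text in black. Rises extend to 9.69 and falls to -2.92.

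Salmonella M-2 lay closer to the PBS libraries than the other Salmonella libraries did. It was the Salmonella library nearest to PBS in 2005 of the 2258 risen genes and in 1656 of the 2071 fallen genes. Over the genes that rose by at least 1, the median difference from the PBS mean was 1.88 in F-1, 2.08 in M-1 and 1.03 in M-2. Without M-2, 3211 genes rose and 3009 fell, and 4149 of the 4329 genes called with it were called again. Without Salmonella F-1 the counts were 1074 and 975, and without Salmonella M-1 they were 1172 and 1098. Leaving out a PBS library gave 1281 to 1599 rises and 1094 to 1404 falls, the fewest without PBS M-2.

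Genes of mature neutrophils rose together. Of 23 tested genes of the neutrophil surface and cytosol, 23 rose, with a median of 3.72, and of 15 tested genes of specific and gelatinase granules 13 rose, with a median of 4.20. In each list 2 members reached the level for testing only through the Salmonella libraries, so that the filter itself favoured their rise. Without Salmonella M-2 the counts were 21 of 21 and 12 of 13. Ly6g, the surface antigen that defines mouse neutrophils, was measured at 0, 0.0282 and 0 FPKM under PBS and 3.28, 5.57 and 2.01 FPKM under Salmonella (log2 fold change 3.05, SE 0.28, adjusted p = 0.000133). Its transcript was listed at 0 in 2 of the 3 PBS libraries and did not overlap between the groups. Ngp, a cathelicidin-related protein of secondary granules, stood at 0.184, 0.0455 and 0 FPKM under PBS and 82.7, 284 and 35.5 FPKM under Salmonella (log2 fold change 7.52, SE 0.68, adjusted p = 0.000233). Mmp8, the neutrophil collagenase, was at 0.893, 0.539 and 0.56 FPKM under PBS and 34.7, 135 and 30.7 FPKM under Salmonella (log2 fold change 5.69, SE 0.55, adjusted p = 0.000336). For both granule genes the lowest Salmonella library lay over 30 FPKM and the highest PBS library under 1 FPKM, and Salmonella M-1 was the highest library.

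Fpr1, the receptor for formylated bacterial peptides, was measured at 1.05, 1.6 and 0.855 FPKM under PBS and 66.7, 119.8 and 34.4 FPKM under Salmonella (log2 fold change 5.5, SE 0.57, adjusted p = 0.000495). Csf3r, the receptor for granulocyte colony-stimulating factor, was at 2.31, 4.54 and 3.4 FPKM under PBS and 15.5, 32.6 and 11.8 FPKM under Salmonella (log2 fold change 2.48, SE 0.52, adjusted p = 0.00684). Asprv1, a retroviral-like aspartic protease, was at 0.33, 0 and 0.0701 FPKM under PBS and 9.57, 24.3 and 7.45 FPKM under Salmonella (log2 fold change 4.49, SE 0.39, adjusted p = 0.000132). In each of these genes Salmonella M-1 was highest and M-2 lowest among the Salmonella libraries, without overlap with PBS. S100a8 and S100a9, the subunits of calprotectin, reached 1455, 9109 and 1297 and 1294, 8650.4 and 1254 FPKM in the Salmonella libraries. Salmonella M-1 thus held several times as much calprotectin RNA as either of the others, while F-1 and M-2 were close to each other.

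The azurophil granule genes of precursors differed from these lists. Mpo, Elane, Ctsg and Ms4a3 did not reach the level for testing, and of 4 tested members 1 rose, with a median of 0.24. That member, Serpinb1a, an inhibitor of neutrophil serine proteases, was measured at 3.22, 4.99 and 6.62 FPKM under PBS and 6.61, 8.98 and 7.56 FPKM under Salmonella (log2 fold change 0.81, SE 0.27, adjusted p = 0.0357). Its call ended with FPKM as deposited (adjusted p = 0.0648) and without PBS F-1, PBS M-1, Salmonella F-1 or Salmonella M-1 (adjusted p 0.0747 to 0.12). Stfa2l1, a stefin that inhibits cysteine proteases, and Wfdc21, a whey acidic protein family member, rose by 5.73 and 7.39. The call of Ngp ended in voom (adjusted p = 0.104), as did that of Wfdc21 (adjusted p = 0.0758). Without Salmonella M-2 the log2 fold changes of Ngp, Stfa2l1 and S100a8 were 8.31, 6.36 and 9.70.

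**Figure D2:**
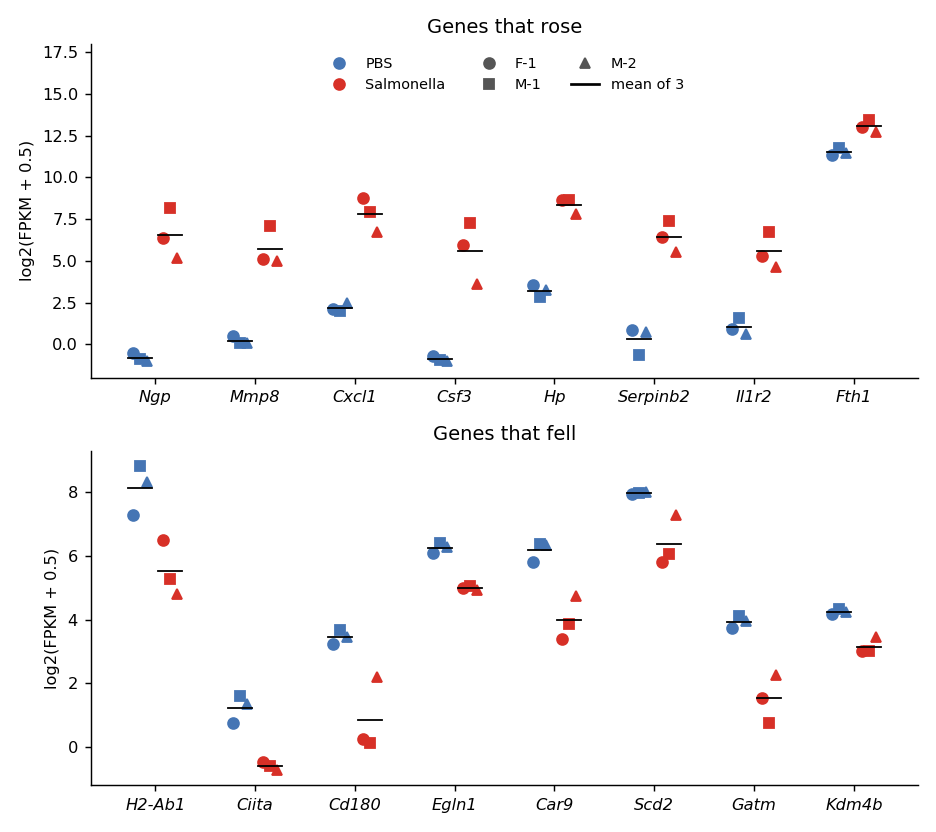
Points are log2(FPKM + 0.5) in each of the 6 wild-type libraries for 8 genes that rose and 8 that fell. Blue is PBS, red is Salmonella, the symbol gives the replicate label and the bar is the mean of 3 libraries. In these 16 genes the groups do not overlap, which was a condition of the choice for most of them. Salmonella M-2 is the red point nearest to PBS in all 8 that rose and in Cd180, Car9, Scd2, Gatm and Kdm4b.

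Chemokines that attract neutrophils rose as a set. All 8 tested members of that list rose, with a median of 5.43. They include Pf4 and Ppbp, which are counted again among the platelet genes. The list also holds the receptor Cxcr1, which did not reach the level for testing. Cxcl1, a ligand of the neutrophil receptor CXCR2, was measured at 3.75, 3.54 and 5.05 FPKM under PBS and 435, 247 and 104 FPKM under Salmonella (log2 fold change 5.81, SE 0.48, adjusted p = 0.000154). Salmonella F-1 was highest and Salmonella M-2 lowest of its group, without overlap with PBS. Csf3, the cytokine that drives granulocyte production in the marrow, was at 0.124, 0.0136 and 0 FPKM under PBS and 62.7, 152 and 11.9 FPKM under Salmonella (log2 fold change 6.64, SE 0.76, adjusted p = 0.000734). Il6, a cytokine of the acute-phase response, was at 0.304, 0.347 and 0.543 FPKM under PBS and 48.2, 46.6 and 5.51 FPKM under Salmonella (log2 fold change 4.91, SE 0.77, adjusted p = 0.0024). In Csf3 and Il6 the M-2 library was far below the other Salmonella libraries, though above all PBS libraries, and without it the log2 fold changes were 7.73 and 6.00. Neither call held in voom (adjusted p = 0.187 for Csf3 and 0.114 for Il6).

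The promoters of these genes were read from RefSeq's table for GRCm38.p6, whose build need not be the authors', and 9716 of the 12164 tested genes were matched by symbol. The NF-kB motif, read as GGG, any 2 bases and TTTCC, and searched on both strands in windows from 250 bases before to 50 after each start, was found in 14 of 223 windows (6.28%) of genes that rose by at least 2 on the log2 scale. The share was 2.30% over windows of all risen genes, 1.63% over those of fallen genes, 1.81% over those of all tested genes and 1.63% over all 32851 windows in the table. Of 10 motifs searched, the 4 described here in full were chosen after their shares had been seen. Among the others, the ETS motif CCGGAAGT, picked in the same way, was found in 0% of windows of genes that rose by at least 2. Its share was 8.04% over windows of all tested genes. Shown here are the 4 risen genes of largest fold with a match in the 250 bases before the start. Each sequence runs 5′ to 3′ on the gene's own strand and ends at the base before the start site, and capitals mark the matches on either strand.
Cxcl3, chr5:90785851-90786100, plus strand: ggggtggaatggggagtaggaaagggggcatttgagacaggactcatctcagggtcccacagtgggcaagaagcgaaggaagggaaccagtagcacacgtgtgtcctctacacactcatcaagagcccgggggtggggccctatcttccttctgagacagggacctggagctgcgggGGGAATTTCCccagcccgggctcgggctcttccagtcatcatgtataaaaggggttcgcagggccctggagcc
Cxcl2, chr5:90903649-90903898, plus strand: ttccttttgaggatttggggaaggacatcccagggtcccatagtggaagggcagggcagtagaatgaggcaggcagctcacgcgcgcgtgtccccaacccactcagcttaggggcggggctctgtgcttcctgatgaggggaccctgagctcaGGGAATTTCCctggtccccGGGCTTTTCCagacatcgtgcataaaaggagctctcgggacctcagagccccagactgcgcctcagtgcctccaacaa
Cxcl1, chr5:90890995-90891244, plus strand: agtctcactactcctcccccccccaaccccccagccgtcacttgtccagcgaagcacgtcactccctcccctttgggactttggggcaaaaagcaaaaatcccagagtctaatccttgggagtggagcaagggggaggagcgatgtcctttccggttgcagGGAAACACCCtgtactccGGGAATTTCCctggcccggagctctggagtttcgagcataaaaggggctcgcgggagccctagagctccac
Il6, chr5:30012864-30013113, plus strand: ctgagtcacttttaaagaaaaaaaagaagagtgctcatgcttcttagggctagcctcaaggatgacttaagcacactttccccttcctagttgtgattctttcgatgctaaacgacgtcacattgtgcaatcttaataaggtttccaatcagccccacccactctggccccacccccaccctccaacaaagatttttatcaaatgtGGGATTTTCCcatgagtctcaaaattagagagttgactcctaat
The 3 chemokine genes lie within 1 stretch of chromosome 5 and share the letters GGGAATTTCC, which begin 73, 97 and 71 bases before the start in Cxcl3, Cxcl2 and Cxcl1. Cxcl1 and Cxcl2 hold a further match, 89 and 78 bases before the start. A match is a description of the sequence and says nothing on binding here.

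The C/EBP motif TTNNGCAA, named for a family of factors active in myeloid and acute-phase genes, was found in 20.2% of windows of genes that rose by at least 2, in 10.1% of those of all risen genes, in 7.11% of those of fallen genes and in 8.65% of those of all tested genes. The AP-1 motif TGANTCA was found in 15.7%, 6.89%, 5.21% and 5.48% of the same sets. The interferon-response motif, read as TTTC, any 2 bases and TTTC, was found in 2.24%, 3.40%, 3.12% and 3.29% of them. Over all windows in the table the shares were 10.8% for C/EBP, 7.81% for AP-1 and 3.44% for the interferon-response motif. Each of these lay above the share over all risen genes. Over windows of genes that fell by at least 1, the shares were 1.18% for NF-kB, 5.92% for C/EBP, 9.47% for AP-1 and 5.33% for the interferon-response motif, the last 2 also above those over all tested genes. Saa3 is shown because, of the 4 risen genes of largest fold with a C/EBP match, its match lies closest to the start.
Saa3, chr7:46715677-46715926, minus strand: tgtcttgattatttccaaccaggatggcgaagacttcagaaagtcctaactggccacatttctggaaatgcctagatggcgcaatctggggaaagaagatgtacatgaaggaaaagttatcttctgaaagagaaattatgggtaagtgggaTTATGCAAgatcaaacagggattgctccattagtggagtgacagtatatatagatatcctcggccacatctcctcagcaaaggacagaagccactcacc
Of 13 tested members of the acute-phase list with a promoter in the table, 9 held the C/EBP motif in at least 1 window, and of 50 cytosolic ribosomal protein genes 4 did.

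Most tested genes of the list of chemokines that attract monocytes, and of their receptors, rose. Of 17 members 10 rose, 3 fell (Ccr2, Cx3cr1 and Cx3cl1) and 4 did not pass, with a median of 1.87. Ccl2, the main ligand of CCR2, was measured at 185, 149 and 166 FPKM under PBS and 971, 542 and 428 FPKM under Salmonella (log2 fold change 2.06, SE 0.31, adjusted p = 0.00167). Ccr2, its receptor on inflammatory monocytes, was at 8.09, 11.1 and 10.2 FPKM under PBS and 2.37, 1.64 and 4.39 FPKM under Salmonella (log2 fold change -1.56, SE 0.27, adjusted p = 0.00303). In a separate list of inflammatory monocyte genes, however, 12 of 20 tested members rose and 1 fell, with a median of 1.28. Cx3cl1, the membrane-bound ligand of CX3CR1, was at 12.1, 11.1 and 10 FPKM under PBS and 4.12, 2.57 and 4.73 FPKM under Salmonella (log2 fold change -1.28, SE 0.26, adjusted p = 0.00533). Cx3cr1, the receptor for that ligand on monocytes and macrophages, was at 6.54, 7.31 and 7.85 FPKM under PBS and 0.0477, 0.0524 and 2.6 FPKM under Salmonella (log2 fold change -2.92, SE 0.53, adjusted p = 0.00407). The ligand and its receptor thus moved in opposite directions for CCR2 and in the same direction for CX3CR1. Cxcl13, which attracts B cells, was at 0.391, 0.0455 and 0.0464 FPKM under PBS and 53, 25.3 and 15.7 FPKM under Salmonella (log2 fold change 5.60, SE 0.62, adjusted p = 0.000658), while the B cell gene Ms4a1 reached at most 0.0449 FPKM and Cd79a did not pass (log2 fold change -0.19).

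Most tested interleukin-1 genes rose. Of 14 tested members of the family 10 rose and 1 fell, with a median of 1.24. Il1a, the alarmin of the family, was measured at 0.0948, 0.0536 and 0.0546 FPKM under PBS and 20.2, 70.9 and 6.43 FPKM under Salmonella (log2 fold change 5.40, SE 0.72, adjusted p = 0.00118). Il1r2, the decoy receptor that binds interleukin-1 without signalling, was at 1.37, 2.51 and 1.06 FPKM under PBS and 39.1, 107 and 24.5 FPKM under Salmonella (log2 fold change 4.70, SE 0.51, adjusted p = 0.000604). Sigirr, a receptor that dampens interleukin-1 and Toll-like receptor signals, was at 14.5, 16.9 and 16.1 FPKM under PBS and 8.8, 8.34 and 11.6 FPKM under Salmonella (log2 fold change -0.52, SE 0.10, adjusted p = 0.00317). The decoy and the dampening receptor therefore moved in opposite directions, each without overlap between the groups. Il1a lost its call in voom (adjusted p = 0.126), and without Salmonella M-2 its log2 fold change was 6.32.

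Of 40 tested negative regulators of inflammatory signalling 21 rose and 4 fell, with a median of 0.61. Irak3, a kinase-dead member of the IRAK family that limits Toll-like receptor signalling, was measured at 0.931, 1.17 and 0.93 FPKM under PBS and 15.5, 28.7 and 7.96 FPKM under Salmonella (log2 fold change 3.57, SE 0.49, adjusted p = 0.00128). Dusp6, a phosphatase of ERK, was at 34.3, 33.1 and 36 FPKM under PBS and 17.6, 18.6 and 23.6 FPKM under Salmonella (log2 fold change -0.60, SE 0.07, adjusted p = 0.000604). Irak3 lay above PBS in each Salmonella library, most in M-1, whereas Dusp6 lay below PBS in each of them. In the interleukin-6 and STAT3 list 10 of 21 rose and 0 fell, among them Timp1, an inhibitor of matrix metalloproteinases, at 260.2, 227 and 248 FPKM under PBS and 562, 624 and 399 FPKM under Salmonella (log2 fold change 1.28, SE 0.20, adjusted p = 0.00148).

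The list of Toll-like receptors, adaptors and sensors was near the shares over all genes, 18.6% higher and 17.0% lower. Of its 28 tested members 6 rose and 4 fell, with a median of 0.12 and of -0.05 with FPKM as deposited. Ly96, which encodes MD-2, the lipopolysaccharide-binding partner of TLR4, was measured at 4.92, 4.82 and 6.66 FPKM under PBS and 13.5, 14.4 and 9.29 FPKM under Salmonella (log2 fold change 1.29, SE 0.21, adjusted p = 0.00202). Lbp, the lipopolysaccharide-binding protein, was at 2.55, 1.86 and 2.1 FPKM under PBS and 15.6, 16.7 and 6.79 FPKM under Salmonella (log2 fold change 2.43, SE 0.45, adjusted p = 0.00422). Tlr4 itself was at 2.58, 2.48 and 2.53 FPKM under PBS and 2.62, 3.78 and 2.58 FPKM under Salmonella and did not pass (log2 fold change 0.36, SE 0.20, adjusted p = 0.184). Receptors of the same family that fell were Cd180, a TLR4 homologue of B cells and macrophages, at 8.96, 12.4 and 10.5 FPKM under PBS and 0.69, 0.603 and 4.13 FPKM under Salmonella (log2 fold change -2.47, SE 0.50, adjusted p = 0.00579), and Tlr9, the receptor for unmethylated DNA, at 5.75, 6.59 and 5.54 FPKM under PBS and 1.4, 1.4 and 1.64 FPKM under Salmonella (log2 fold change -1.55, SE 0.23, adjusted p = 0.00124). Cd180 in Salmonella M-2 lay between the other Salmonella libraries and PBS, and without that library its log2 fold change was -3.07. Tlr9 was alike in the 3 Salmonella libraries.

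Among myeloid lectins, TREM and Fc receptors 14 of 25 tested members rose and 1 fell, with a median of 1.05. Clec4e, which encodes the glycolipid receptor Mincle, was measured at 1.52, 1.72 and 2.12 FPKM under PBS and 50.5, 71.2 and 22 FPKM under Salmonella (log2 fold change 4.44, SE 0.51, adjusted p = 0.000739). Trem1, an amplifier of neutrophil and monocyte activation, was at 0.919, 0.806 and 0.478 FPKM under PBS and 13.2, 19 and 5.33 FPKM under Salmonella (log2 fold change 3.42, SE 0.43, adjusted p = 0.000925). Trem2, a lipid receptor of macrophages, was at 13.4, 27.7 and 18.2 FPKM under PBS and 7.34, 6.55 and 12.4 FPKM under Salmonella (log2 fold change -0.94, SE 0.30, adjusted p = 0.0356). TREM1 and TREM2 transcripts thus moved in opposite directions. The call of Trem2 ended in voom (adjusted p = 0.0679) and without PBS M-1, PBS M-2, Salmonella F-1 or Salmonella M-1 (adjusted p 0.0782 to 0.117).

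Of 23 tested resident macrophage genes 5 rose and 3 fell, with a median of -0.20, near the 18.6% and 17.0% over all genes. Marco, a scavenger receptor that binds bacteria, was measured at 0.319, 0.0412 and 0.35 FPKM under PBS and 7.57, 1.33 and 4.63 FPKM under Salmonella (log2 fold change 2.68, SE 0.48, adjusted p = 0.00342). Folr2, a folate receptor of perivascular macrophages, was at 4.96, 1.51 and 3.18 FPKM under PBS and 21.2, 9.22 and 15.3 FPKM under Salmonella (log2 fold change 2.30, SE 0.47, adjusted p = 0.00625). Ms4a7, a membrane protein of tissue macrophages, was at 28.3, 44 and 38.5 FPKM under PBS and 12.2, 11.8 and 24.2 FPKM under Salmonella (log2 fold change -1.04, SE 0.29, adjusted p = 0.0216). The general macrophage genes Csf1r, Adgre1, Cd68 and C1qa did not pass (log2 fold changes -0.25, -0.57, 0.07 and -0.41). Among the other monocyte and macrophage markers checked, Mrc1 rose (log2 fold change 2.07, adjusted p = 0.013), Ccr2 fell and Ly6c2 did not pass (log2 fold change -0.23). The call of Mrc1 ended without Salmonella F-1 (adjusted p = 0.0588). Ms4a7 lost its call without PBS M-1, PBS M-2, Salmonella F-1 or Salmonella M-1 (adjusted p 0.0658 to 0.0867). Salmonella F-1 was the highest library for Marco and Folr2 and Salmonella M-1 the lowest of its group, whereas Salmonella M-1 was highest for calprotectin.

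Acute-phase and iron-handling genes rose to some of the highest levels measured. Of 17 tested serum amyloid and acute-phase genes 15 rose, with a median of 3.28, and of 28 genes of haem breakdown and iron handling 20 rose and 1 fell, with a median of 0.66. The count of rises in the iron list was 15 with FPKM as deposited. Hp, haptoglobin, which binds free haemoglobin, was measured at 11.2, 6.74 and 8.95 FPKM under PBS and 398, 393 and 226 FPKM under Salmonella (log2 fold change 5.34, SE 0.47, adjusted p = 0.000189). Ptx3, a pentraxin that opsonises microbes, was at 2, 0.193 and 0.869 FPKM under PBS and 91.8, 61 and 22.4 FPKM under Salmonella (log2 fold change 5.42, SE 0.67, adjusted p = 0.00091). Fth1, the heavy chain of the iron store ferritin, was at 2557, 3446 and 2878 FPKM under PBS and 8291, 11040 and 6876 FPKM under Salmonella (log2 fold change 1.74, SE 0.23, adjusted p = 0.000865), the largest gain of mean FPKM among called genes without overlap. Steap4, a metalloreductase, was at 0.928, 0.219 and 0.969 FPKM under PBS and 14.8, 10.6 and 7.84 FPKM under Salmonella (log2 fold change 3.45, SE 0.42, adjusted p = 0.000809). The single member that fell was Tfr2, a homologue of the transferrin receptor, at 1.57, 2.03 and 2.44 FPKM under PBS and 0.54, 0.539 and 0.906 FPKM under Salmonella (log2 fold change -1.0, SE 0.21, adjusted p = 0.00515). The liver genes Alb, Ttr and Apoa1 were at or under 0.121 FPKM in these libraries. Without Salmonella M-2 the log2 fold change of Ptx3 was 6.08.

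Of 17 tested genes of arginine, nitric oxide and itaconate metabolism 13 rose and 0 fell, with a median of 0.99. Gch1, which makes the cofactor of nitric oxide synthases, was measured at 2.65, 3.06 and 2.96 FPKM under PBS and 8.06, 7.71 and 5.43 FPKM under Salmonella (log2 fold change 1.32, SE 0.18, adjusted p = 0.000876). Ddah1, which breaks down an inhibitor of those synthases, was at 0.687, 0.544 and 1.14 FPKM under PBS and 3.7, 3.88 and 3 FPKM under Salmonella (log2 fold change 1.82, SE 0.22, adjusted p = 0.000604). Of 16 tested genes of the phagocyte oxidase and of superoxide handling 13 rose and 0 fell, with a median of 0.94. Sod3, the extracellular superoxide dismutase, was at 6.22, 2.91 and 5.8 FPKM under PBS and 35.7, 46.9 and 22.9 FPKM under Salmonella (log2 fold change 2.90, SE 0.39, adjusted p = 0.00119). Gpx3, the secreted glutathione peroxidase, was at 17.5, 9.61 and 19.9 FPKM under PBS and 128, 115 and 57.4 FPKM under Salmonella (log2 fold change 2.81, SE 0.45, adjusted p = 0.00252). In all 4 genes Salmonella M-2 was the lowest Salmonella library and still lay above PBS.

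In the prostaglandin and leukotriene pathway 11 of 19 tested members rose and 1 fell, with a median of 0.44. Alox5, the first enzyme of leukotriene synthesis, was measured at 0.301, 0.0085 and 0.182 FPKM under PBS and 1.52, 2.56 and 1.12 FPKM under Salmonella (log2 fold change 1.85, SE 0.28, adjusted p = 0.00142). Ptgis, prostacyclin synthase, was at 0.768, 0.16 and 0.652 FPKM under PBS and 2.48, 4.35 and 2.15 FPKM under Salmonella (log2 fold change 1.92, SE 0.31, adjusted p = 0.00176). Among genes of inflammasomes, pyroptosis and necroptosis 6 of 20 rose and 1 fell, against 18.6% and 17.0% of all genes, with a median of 0.22. Casp4, which encodes caspase-11, the sensor of cytosolic lipopolysaccharide, was at 38.1, 39.6 and 33.2 FPKM under PBS and 87.3, 93.3 and 63.3 FPKM under Salmonella (log2 fold change 1.30, SE 0.25, adjusted p = 0.00437). Ripk3, the kinase of necroptosis, was at 2.72, 2.25 and 3.1 FPKM under PBS and 7.72, 8.42 and 5.07 FPKM under Salmonella (log2 fold change 1.41, SE 0.25, adjusted p = 0.00303). The genes that execute these forms of death, Gsdmd and Mlkl, did not pass (log2 fold changes 0.19 and 0.07).

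Genes of MHC class II presentation fell. Of 14 tested members 9 fell and 1 rose, with a median of -0.91. H2-Ab1, a beta chain of the class II molecule, was measured at 155, 447 and 317 FPKM under PBS and 90.2, 38.1 and 27.3 FPKM under Salmonella (log2 fold change -2.42, SE 0.67, adjusted p = 0.0207). Ciita, the master regulator of class II transcription, was at 1.19, 2.54 and 2.06 FPKM under PBS and 0.22, 0.161 and 0.114 FPKM under Salmonella (log2 fold change -1.74, SE 0.42, adjusted p = 0.0108). H2-DMa, which helps to load peptides, was at 4, 7.51 and 4.98 FPKM under PBS and 1.38, 1.11 and 1.41 FPKM under Salmonella (log2 fold change -1.55, SE 0.37, adjusted p = 0.0115). The PBS libraries differed among themselves, with F-1 lowest for all 3 genes, and Salmonella M-2 was the lowest of all 6 libraries for H2-Ab1 and Ciita. H2-Aa, H2-Eb1 and Cd74 fell by a log2 fold change of -2.44, -2.47 and -2.52. The calls of H2-Ab1, H2-Aa and H2-Eb1 ended without PBS M-1, PBS M-2, Salmonella M-1 or Salmonella M-2 (adjusted p 0.0512 to 0.0833), and that of Cd74 ended without the first 3 of these (adjusted p 0.062 to 0.0692). Ciita did not pass in voom (adjusted p = 0.0663). Without Salmonella M-2, 6 of the 14 fell. The member that rose was Ctsl, cathepsin L, at 157, 174 and 149 FPKM under PBS and 222, 223 and 209 FPKM under Salmonella (log2 fold change 0.64, SE 0.12, adjusted p = 0.00308).

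Interferon-related genes did not rise as a set. Of 31 tested type I interferon-stimulated genes 1 rose and 2 fell, with a median of -0.10, against 18.6% and 17.0% of all genes. Of 16 guanylate-binding proteins and immunity-related GTPases, which are induced by interferon-gamma, 0 rose and 3 fell, with a median of -0.69. Gbp8, a guanylate-binding protein, was measured at 2.18, 4.45 and 3.51 FPKM under PBS and 0.501, 0.384 and 0.334 FPKM under Salmonella (log2 fold change -1.94, SE 0.54, adjusted p = 0.0201), a call that ended in voom (adjusted p = 0.106) and without PBS M-1, PBS M-2, Salmonella F-1 or Salmonella M-1 (adjusted p 0.0561 to 0.0673). With FPKM as deposited, 7 GTPases and 7 interferon-stimulated genes fell. Without Salmonella M-2, 10 interferon-stimulated genes rose and 3 fell.

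In the MHC class I list 1 of 23 tested members rose and 3 fell, against 18.6% and 17.0% of all genes. The median was 0.04, and -0.16 with FPKM as deposited. Nlrc5, the regulator of class I transcription, was measured at 18.2, 16.1 and 16.5 FPKM under PBS and 7.11, 7.94 and 9.41 FPKM under Salmonella (log2 fold change -0.83, SE 0.23, adjusted p = 0.0174). Its call ended without PBS F-1 or Salmonella F-1 (adjusted p 0.0546 to 0.0695). Of 25 tested T and NK cell genes 2 rose and 2 fell, against the same shares, with a median of -0.46. Cd8a, the alpha chain of CD8, was at 1.4, 3.2 and 1.47 FPKM under PBS and 0.696, 0.22 and 0.135 FPKM under Salmonella (log2 fold change -1.44, SE 0.47, adjusted p = 0.0369). Cd8b1, the beta chain, was at 2.35, 3.66 and 2.66 FPKM under PBS and 0.705, 0.863 and 0.875 FPKM under Salmonella (log2 fold change -1.21, SE 0.36, adjusted p = 0.0237). The 3 libraries of each treatment did not overlap for either chain, but PBS M-1 was high for both. Both calls ended without PBS M-1 or PBS M-2, that of Cd8a also without PBS F-1, Salmonella M-1 or Salmonella M-2 and in voom (adjusted p 0.0558 to 0.124), and that of Cd8b1 also without Salmonella F-1 or Salmonella M-1 (adjusted p 0.0583 to 0.081). Cd3e and Cd3g did not pass (log2 fold changes -0.94 and -1.20). Of 11 tested regulatory and exhausted T cell genes 0 passed in limma or in voom and 2 had an unadjusted p under 0.05, whereas 5 rose and 1 fell without Salmonella M-2.

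**Figure D3:**
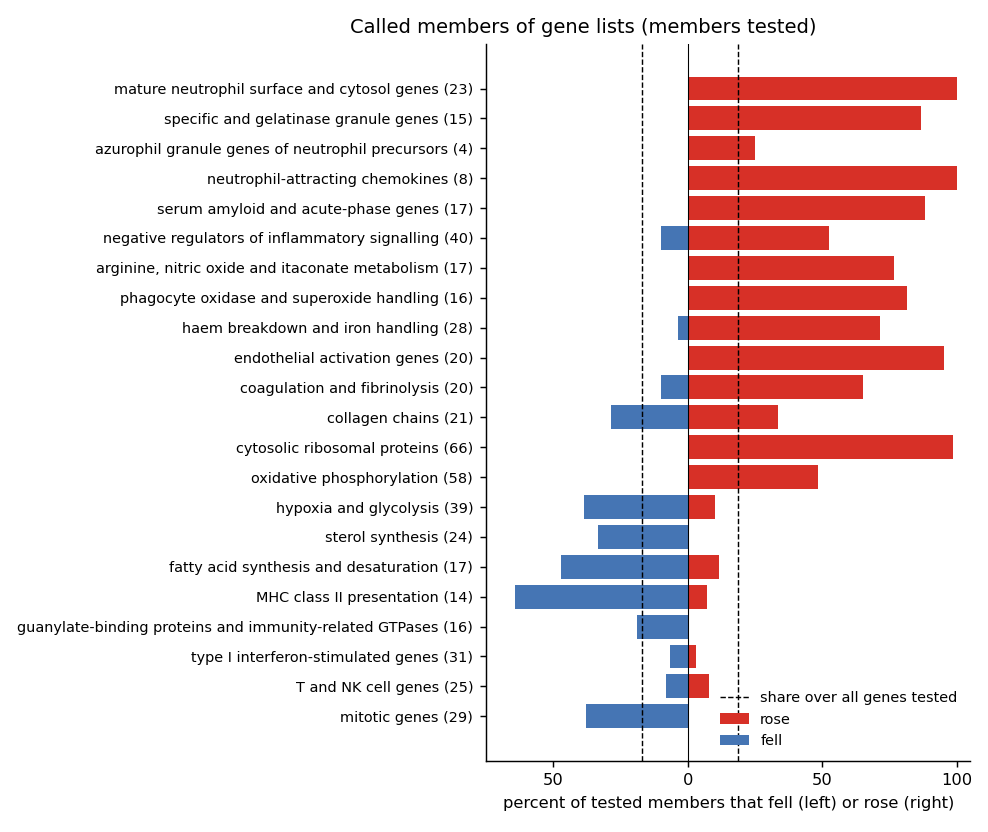
Bars give the percent of tested members of 22 gene lists that rose (red, right) or fell (blue, left), with the number of members tested in brackets. Dashed lines mark the share over all genes tested, 18.6% higher and 17.0% lower. The lists of mature neutrophil genes, neutrophil-attracting chemokines and cytosolic ribosomal proteins reach or approach 100% on the right, and MHC class II presentation extends farthest to the left.

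Vessel genes rose in most members of their lists. Of 20 tested endothelial activation genes 19 rose, with a median of 1.15, and of 21 endothelial identity genes 15 rose and 1 fell, with a median of 1.22. Of these members, 1 and 2 were tested only through the Salmonella libraries, which favours a rise. Csf3, described above, is the member of the activation list that rose most (log2 fold change 6.64). Pecam1, the junction protein CD31, was measured at 11.8, 10.1 and 11.7 FPKM under PBS and 20.8, 27.7 and 20.7 FPKM under Salmonella (log2 fold change 1.19, SE 0.18, adjusted p = 0.00142). Emcn, the sialomucin of venous and capillary endothelium, was at 5.27, 3.08 and 4.65 FPKM under PBS and 14.5, 15.2 and 11.6 FPKM under Salmonella (log2 fold change 1.77, SE 0.21, adjusted p = 0.000604). Jam2, a junctional adhesion molecule, was at 0.163, 0.15 and 0.27 FPKM under PBS and 3.4, 2.63 and 1.69 FPKM under Salmonella (log2 fold change 2.25, SE 0.27, adjusted p = 0.000604). Plvap, which builds the diaphragms of fenestrated vessels, was at 20.7, 17.9 and 26.4 FPKM under PBS and 40.3, 45.9 and 40.8 FPKM under Salmonella (log2 fold change 1.16, SE 0.15, adjusted p = 0.000697). None of these overlapped between the groups. Kdr, the main receptor of VEGF-A, did not pass (log2 fold change 0.21), and Vegfa fell, at 43.5, 46.2 and 56.9 FPKM under PBS and 23.5, 30.9 and 22.2 FPKM under Salmonella (log2 fold change -0.74, SE 0.19, adjusted p = 0.0122), a call that ended without PBS M-2 (adjusted p = 0.0516).

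Coagulation genes rose with them, 13 of 20 tested members, while 2 fell, with a median of 1.27. Serpinb2, plasminogen activator inhibitor-2, was measured at 1.32, 0.129 and 1.14 FPKM under PBS and 85.9, 169 and 44.9 FPKM under Salmonella (log2 fold change 6.31, SE 0.51, adjusted p = 0.000133). Fgl2, a membrane prothrombinase of macrophages, was at 25.4, 38.9 and 36.5 FPKM under PBS and 14.1, 5.94 and 7.91 FPKM under Salmonella (log2 fold change -1.68, SE 0.51, adjusted p = 0.0291). The groups did not overlap in either gene. Plau, the urokinase plasminogen activator, fell by -0.53 on the log2 scale, a call that ended without PBS F-1, PBS M-1, PBS M-2, Salmonella F-1 or Salmonella M-2 (adjusted p 0.0504 to 0.136), in the replicate block (adjusted p = 0.0511) and with library weights (adjusted p = 0.104). The call of Fgl2 ended without PBS M-1, PBS M-2, Salmonella M-1 or Salmonella M-2 (adjusted p 0.0644 to 0.096).

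Of 9 tested platelet and megakaryocyte genes 6 rose, with a median of 1.63. Pf4, platelet factor 4, was measured at 9.09, 9.44 and 9.85 FPKM under PBS and 122, 131 and 142 FPKM under Salmonella (log2 fold change 3.92, SE 0.16, adjusted p = 1.98e-07), the smallest p of all genes tested. Ppbp, the platelet chemokine precursor, was at 0.197, 0.0488 and 0 FPKM under PBS and 1.63, 5.72 and 6.03 FPKM under Salmonella (log2 fold change 3.06, SE 0.33, adjusted p = 0.000326). Salmonella M-2 was the highest library for both in FPKM as deposited only. The scaling factors were 0.8511, 0.8531 and 1.035 for the Salmonella libraries. After division by them M-1 was highest for both, and M-2 was the lowest Salmonella library for Pf4. The platelet genes Gp9, Gp1ba, Gp5 and Gp6 did not reach the level for testing, and Gp9 lay at or under 0.123 FPKM. Of 8 tested haemoglobin and red cell genes 6 rose, with a median of 1.67. Hbb-bs, a beta-globin, was at 28.4, 15.6 and 36.7 FPKM under PBS and 242, 237 and 92.7 FPKM under Salmonella (log2 fold change 2.95, SE 0.57, adjusted p = 0.00513), a gene with near-identical copies among which the authors' counting could split fragments. Summed over the list, red cell genes held 46.8 to 88.0 FPKM under PBS and 416, 394 and 171 FPKM under Salmonella. How far blood left in the tumours bears on the vessel, platelet and neutrophil genes was not tested.

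Some mast cell genes rose as well. Of 20 listed mast cell, basophil and eosinophil genes 11 were tested and 7 rose, with a median of 2.44. Fcer1a, the alpha chain of the IgE receptor, was measured at 0.234, 0.463 and 0.21 FPKM under PBS and 10.2, 4.37 and 3.14 FPKM under Salmonella (log2 fold change 3.01, SE 0.40, adjusted p = 0.00091). Hdc, which makes histamine and is also expressed by neutrophils, was at 3.22, 0.909 and 2.23 FPKM under PBS and 33.2, 117 and 18.7 FPKM under Salmonella (log2 fold change 4.31, SE 0.62, adjusted p = 0.00162). Salmonella F-1 was highest for Fcer1a and Salmonella M-1 for Hdc. The 9 members that did not reach the level for testing include Ms4a2, Mcpt8 and the eosinophil genes Epx and Prg2.

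Collagen genes moved in both directions. Of 21 tested chains 7 rose and 6 fell, against 18.6% and 17.0% of all genes. The median was 0.16, and -0.02 with FPKM as deposited. Col1a2, a chain of fibrillar collagen I, was measured at 89.1, 28.3 and 78.1 FPKM under PBS and 365, 330.5 and 189 FPKM under Salmonella (log2 fold change 2.46, SE 0.45, adjusted p = 0.00417). Col5a2, a chain of the fibril-initiating collagen V, was at 13, 5.28 and 13.1 FPKM under PBS and 53.3, 68.1 and 32.3 FPKM under Salmonella (log2 fold change 2.47, SE 0.42, adjusted p = 0.00311). Col6a3, a chain of microfibrillar collagen VI, was at 188, 144 and 159 FPKM under PBS and 86, 80 and 125 FPKM under Salmonella (log2 fold change -0.58, SE 0.15, adjusted p = 0.0121), a call that ended without Salmonella M-1 (adjusted p = 0.0545). The fibrillar chains were lowest in PBS M-1 and rose in every Salmonella library. Col6a1 and Col6a2 fell by a log2 fold change of -0.57 and -0.53. The call of Col6a1 ended in each fit that left out a library other than Salmonella M-2 (adjusted p 0.0531 to 0.129).

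Of 26 tested matrix metalloproteinases, related enzymes and inhibitors 12 rose and 2 fell, with a median of 0.76. Adamts4, an aggrecanase, was measured at 7.78, 6.19 and 7.42 FPKM under PBS and 21.5, 21.8 and 19.2 FPKM under Salmonella (log2 fold change 1.67, SE 0.21, adjusted p = 0.000734). Mmp16, a membrane-type metalloproteinase, was at 5.72, 4.76 and 4.5 FPKM under PBS and 1.52, 1.11 and 2.91 FPKM under Salmonella (log2 fold change -1.14, SE 0.18, adjusted p = 0.00182). Of 24 fibroblast and pericyte genes 11 rose, 3 fell and 10 did not pass, with a median of 0.78. Mfap5, a microfibril protein of fibroblasts, was at 6.89, 3.06 and 4.62 FPKM under PBS and 30.8, 33.9 and 15.9 FPKM under Salmonella (log2 fold change 2.53, SE 0.39, adjusted p = 0.00207). The pericyte receptors Pdgfrb and Cspg4 fell, Cspg4 at 4.96, 5.48 and 4.05 FPKM under PBS and 0.797, 1.84 and 2.43 FPKM under Salmonella (log2 fold change -1.21, SE 0.24, adjusted p = 0.00436) and Pdgfrb at 25.7, 25.5 and 22.1 FPKM under PBS and 9.61, 12.8 and 16.8 FPKM under Salmonella (log2 fold change -0.73, SE 0.14, adjusted p = 0.00441). The fibroblast marker Dcn rose (log2 fold change 1.27, adjusted p = 0.00341). Pdgfra and Lum did not pass (log2 fold changes -0.24 and 0.76, adjusted p = 0.291 and 0.0504).

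Skeletal muscle genes were present at low levels and 11 of 15 tested members rose, with a median of 2.26. Acta1, the actin of skeletal muscle, was measured at 0.868, 0.118 and 1.34 FPKM under PBS and 45.1, 40.2 and 21.5 FPKM under Salmonella (log2 fold change 5.06, SE 1.24, adjusted p = 0.013), a call that ended in voom (adjusted p = 0.0791) and without Salmonella F-1 (adjusted p = 0.0529). In voom 7 of 15 rose. The summed list went from 18.7 to 24.6 FPKM in the PBS libraries to 74.9 to 137 FPKM in the Salmonella libraries, while the defining gene Myh4 stayed at or under 0.282 FPKM. Whether neighbouring muscle bears on the other lists was not tested.

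Genes of the hypoxia and glycolysis list fell more often than they rose. Of 39 tested members 15 fell and 4 rose, with a median of -0.24, and 23 fell with FPKM as deposited. Car9, carbonic anhydrase 9, a target of HIF-1, was measured at 55.8, 82.3 and 81.4 FPKM under PBS and 10.1, 14 and 26.4 FPKM under Salmonella (log2 fold change -1.99, SE 0.32, adjusted p = 0.00246). Egln1, the oxygen-sensing hydroxylase PHD2, was at 68.2, 83.4 and 77.2 FPKM under PBS and 31.4, 32.5 and 30 FPKM under Salmonella (log2 fold change -1.07, SE 0.12, adjusted p = 0.000469). Aldoc, an aldolase, was at 4.97, 4.83 and 4.58 FPKM under PBS and 0.758, 1.06 and 1.9 FPKM under Salmonella (log2 fold change -1.52, SE 0.19, adjusted p = 0.000734). All 3 fell without overlap. Members that rose were Pfkfb3, which drives glycolytic flux, at 9.02, 9.63 and 10.3 FPKM under PBS and 39, 55 and 21.8 FPKM under Salmonella (log2 fold change 2.04, SE 0.36, adjusted p = 0.00342), and Adm, adrenomedullin, at 2.55, 2.46 and 2.28 FPKM under PBS and 10.5, 15.7 and 6.09 FPKM under Salmonella (log2 fold change 2.03, SE 0.34, adjusted p = 0.00277). The central enzymes Gapdh, Pgk1, Ldha and Pkm did not pass (log2 fold changes 0.24, -0.02, 0.04 and 0.09). Salmonella M-2 was the lowest library of all for Egln1 and Vegfa.

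In the lists of lipid synthesis more genes fell than rose, and others did not pass. Of 24 tested sterol synthesis genes 8 fell, 0 rose and 16 did not pass, with a median of -0.47, and 15 fell without Salmonella M-2. Of 17 genes of fatty acid synthesis and desaturation 8 fell, 2 rose and 7 did not pass, with a median of -0.34. Scd2, a stearoyl-CoA desaturase, was measured at 243, 252 and 257 FPKM under PBS and 55, 65.8 and 155 FPKM under Salmonella (log2 fold change -1.41, SE 0.24, adjusted p = 0.00254). Fads2, the delta-6 desaturase, was at 86.2, 70.8 and 85.1 FPKM under PBS and 27.1, 20.1 and 44.3 FPKM under Salmonella (log2 fold change -1.27, SE 0.21, adjusted p = 0.00252). In both desaturase genes Salmonella M-2 lay between the other Salmonella libraries and PBS. The members that rose were Dgat1 and Dgat2, which make triglyceride, Dgat2 at 3.24, 3.22 and 2.87 FPKM under PBS and 16.4, 23.9 and 7.95 FPKM under Salmonella (log2 fold change 2.26, SE 0.38, adjusted p = 0.00308). The call of Dgat1 ended without PBS M-2 or Salmonella F-1 (adjusted p 0.0703 to 0.0753). In the list of lipid uptake, transport and storage 10 of 21 rose and 4 fell, among the former Cd36, a fatty acid receptor, at 1.16, 0.579 and 1.2 FPKM under PBS and 7.57, 5.54 and 6.31 FPKM under Salmonella (log2 fold change 2.42, SE 0.37, adjusted p = 0.00177).

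Cytosolic ribosomal protein genes rose in nearly all members, and those of oxidative phosphorylation and the proteasome in part. Of 66 tested cytosolic ribosomal protein genes 65 rose, with a median of 0.77. Their summed level was 73603 to 80681 FPKM in the PBS libraries and 133303, 134141 and 85606 FPKM in the Salmonella libraries. Rps12 was measured at 711, 743 and 718 FPKM under PBS and 1680.3, 1696 and 906 FPKM under Salmonella (log2 fold change 1.12, SE 0.26, adjusted p = 0.00861). Of 58 oxidative phosphorylation genes 28 rose and 0 fell, with a median of 0.38, and of 31 constitutive proteasome subunits 23 rose and 0 fell, with a median of 0.48. Psmb5, a catalytic subunit, was at 217, 190.2 and 195 FPKM under PBS and 311, 307 and 261 FPKM under Salmonella (log2 fold change 0.74, SE 0.15, adjusted p = 0.00514). Salmonella M-2 stood close to PBS in these lists, with a median difference from the PBS mean of 0.17 for ribosomal proteins against 1.07 in each of F-1 and M-1.

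These lists hold short genes, and the change depended on gene length. Among genes of up to 1000 bp, with length recovered from the deposited values, 369 of 745 rose and 8 fell, with a median of 0.48. Among genes over 5000 bp 271 of 3488 rose and 950 fell, with a median of -0.18. The mean gene length per fragment was 4205, 4078 and 4200 bp in the PBS libraries and 3492, 3506 and 4024 bp in the Salmonella libraries. With the trend on length removed in each library, 41 of 66 ribosomal protein genes rose, with a median of 0.34. Oxidative phosphorylation then had 5 rises, 5 falls and a median of 0.02, and the proteasome 11 rises and a median of 0.27. The part that RNA quality or library preparation had in the length trend was not tested.

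**Figure D4:**
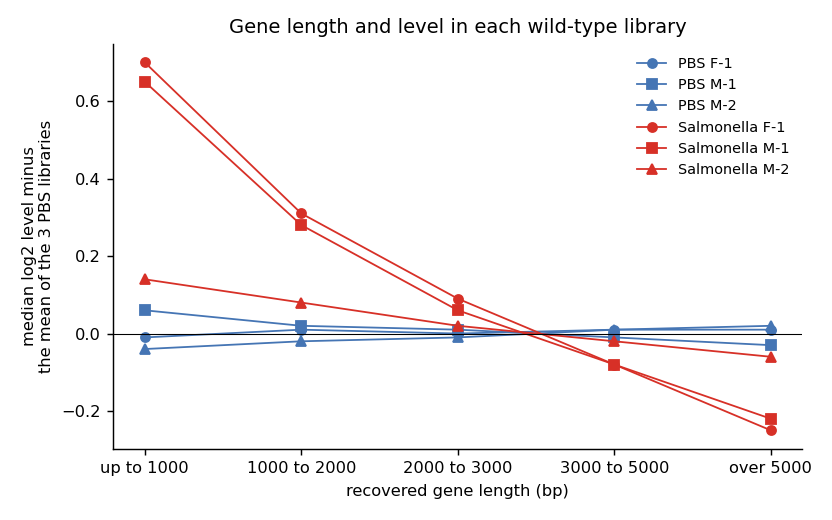
Genes are binned by recovered length in bp on the horizontal axis, with 745 to 3488 genes a bin. The vertical axis gives the median over genes of the log2 level minus the mean of the 3 PBS libraries, 1 line per library. In Salmonella F-1 and M-1 the medians run from 0.70 and 0.65 in the shortest bin to -0.25 and -0.22 in the longest, in Salmonella M-2 from 0.14 to -0.06, and the PBS libraries stay within -0.04 and 0.06.

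Mitotic genes fell in part. Of 29 tested mitotic genes 11 fell and 0 rose, with a median of -0.21. Anln, a scaffold of the cleavage furrow, was measured at 31.5, 31.4 and 32.1 FPKM under PBS and 16.9, 17.2 and 23.2 FPKM under Salmonella (log2 fold change -0.54, SE 0.09, adjusted p = 0.00257). Of 34 DNA replication genes 5 rose and 3 fell, against 18.6% and 17.0% of all genes, with a median of -0.07. Ccnd1, cyclin D1, was taken from a list of Wnt and intestinal stem cell genes, of which 4 of 10 tested members rose and 2 fell, and was at 114, 102 and 121 FPKM under PBS and 56.3, 49.9 and 71.1 FPKM under Salmonella (log2 fold change -0.74, SE 0.14, adjusted p = 0.00396). Of 17 tested BCL2 family regulators of apoptosis 3 rose and 3 fell, against 18.6% and 17.0% of all genes, with a median of -0.10. Among them Bcl2, the founding inhibitor of apoptosis, was at 2.4, 1.74 and 2.67 FPKM under PBS and 0.699, 0.865 and 1.19 FPKM under Salmonella (log2 fold change -0.84, SE 0.18, adjusted p = 0.00688). Of 21 tested p53 targets 4 rose and 4 fell, with a median of 0.21, which is near the shares over all genes.

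Transcription factors of the acute response differed in direction. Of 29 AP-1 and immediate early genes 9 rose and 3 fell, against 18.6% and 17.0% of all genes, with a median of 0.22. Batf, an AP-1 factor of lymphoid and myeloid cells, was measured at 1.42, 1.67 and 1.85 FPKM under PBS and 19.8, 29.5 and 5.5 FPKM under Salmonella (log2 fold change 3.03, SE 0.55, adjusted p = 0.00407). Klf4 was at 7.97, 12.4 and 11.4 FPKM under PBS and 2.86, 3.02 and 5.33 FPKM under Salmonella (log2 fold change -1.24, SE 0.18, adjusted p = 0.00124). Jun was at 116, 128 and 119 FPKM under PBS and 61.4, 72.1 and 91.2 FPKM under Salmonella (log2 fold change -0.51, SE 0.11, adjusted p = 0.00623). Cebpd, a C/EBP factor of the acute phase, was at 6.35, 8.58 and 7.18 FPKM under PBS and 47.7, 33.7 and 28.2 FPKM under Salmonella (log2 fold change 2.40, SE 0.30, adjusted p = 0.00091). Batf in Salmonella M-2 was well below the other Salmonella libraries, and without it the log2 fold change was 3.80. Of 21 NF-kB subunits and kinases 7 rose and 1 fell, with a median of 0.17 and of -0.02 with FPKM as deposited, while Rela and Nfkb1 did not pass (0.08 and 0.04). Of 15 circadian clock genes 6 fell and 3 rose, Bhlhe41, a repressor of the clock, at 16.5, 20 and 16 FPKM under PBS and 8.62, 7.86 and 12.9 FPKM under Salmonella (log2 fold change -0.65, SE 0.14, adjusted p = 0.00566).

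Some of the falls with the smallest p were of moderate size. Kdm4b, a histone H3 lysine demethylase, was measured at 17.7, 19.5 and 18.5 FPKM under PBS and 7.56, 7.58 and 10.4 FPKM under Salmonella (log2 fold change -0.91, SE 0.08, adjusted p = 0.000121). Atf5, a stress-induced transcription factor, was at 64.7, 69.8 and 83.4 FPKM under PBS and 24.7, 31 and 32.1 FPKM under Salmonella (log2 fold change -1.11, SE 0.12, adjusted p = 0.000326). Both were chosen among genes without overlap between the groups. Larger falls were those of Sertad4, at 7.72, 11 and 9.61 FPKM under PBS and 0.505, 0.494 and 3.45 FPKM under Salmonella (log2 fold change -2.52, SE 0.46, adjusted p = 0.00422), of Gatm, the first enzyme of creatine synthesis, at 12.9, 16.7 and 15.2 FPKM under PBS and 2.44, 1.2 and 4.34 FPKM under Salmonella (log2 fold change -2.25, SE 0.37, adjusted p = 0.00288), and of Mme, the membrane peptidase neprilysin, at 5.25, 7.02 and 6.6 FPKM under PBS and 0.862, 0.41 and 1.68 FPKM under Salmonella (log2 fold change -2.15, SE 0.31, adjusted p = 0.00131). Apol6, an apolipoprotein L gene, was at 13.9, 13.4 and 14.2 FPKM under PBS and 2.08, 1.69 and 2.04 FPKM under Salmonella (log2 fold change -2.39, SE 0.43, adjusted p = 0.00386), with the 3 Salmonella libraries nearly equal. For Sertad4 the log2 fold change without Salmonella M-2 was -3.12.

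**Figure D5:**
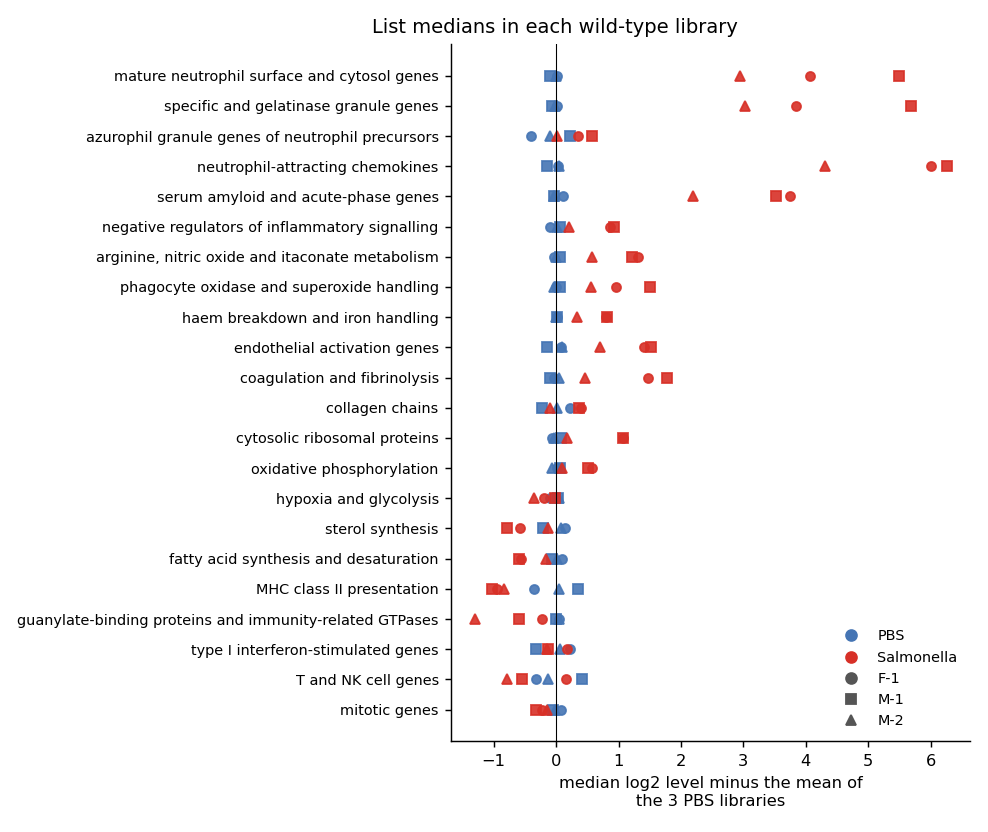
For 22 gene lists, points give the median over tested members of the log2 level minus the mean of the 3 PBS libraries, in each wild-type library, with colour for treatment and symbol for replicate label. Salmonella M-2 lies between PBS and the other Salmonella libraries for most lists, such as neutrophil-attracting chemokines (4.30 against 6.01 and 6.26). It is lowest of all for guanylate-binding proteins and immunity-related GTPases (-1.30), T and NK cell genes (-0.79) and hypoxia and glycolysis (-0.35).

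The response in wild-type hosts was compared with that in knockout hosts by the difference of both treatment effects. With all libraries 3 of 12164 genes passed, or 0.0247%, and 1746 had an unadjusted p under 0.05. The 3 genes were Pf4, Tmem40, a membrane protein of platelets, and Fabp7, a fatty acid-binding protein of glia and Schwann cells. This count depended on Salmonella M-2. Without that library 2237 genes passed, and with library weights, which gave it the lowest weight of all (0.169), 3134 passed. Without any other single library 2 to 4 passed, and in voom 0 did, with 1477 at an unadjusted p under 0.05. Pf4 was at 9.46 ± 0.381 and 132 ± 10.1 FPKM (SD, n = 3) under PBS and Salmonella in wild-type hosts and at 8.88 ± 1.97 and 31.2 ± 6.58 FPKM (SD, n = 3) in knockout hosts, a difference of the effects of 2.13 on the log2 scale (SE 0.23, adjusted p = 0.00874 in limma).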

How the data were processed

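RNA-seq of MC38 tumours from 12 libraries was analysed, 3 per host genotype and treatment, grouped by the genotype and treatment labels. Per the labels' protocols, extraction used TRIzol and library preparation a VAHTS kit. The submitters' processing notes name fastp, HISAT2 and HTSeq, without versions or roles, and the build of the genome was not given in the sources used here. Per gene, the authors deposited values whose unit, FPKM, was inferred from the values: for all 18222 genes above 0 they equal whole fragments at 1 gene length, within 0.01 fragments, and the fragments and lengths so recovered were used for voom and for the length trend.

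The FPKM were divided by scaling factors from a trimmed mean of ratios (30% of ratios and 5% of levels trimmed), computed over genes passing the filter. That gene set was chosen after factors over all genes were seen to differ from an earlier analysis of these data, before calls were counted. Values were tested as log2(value + 0.5) in limma 3.58.1 (R 4.3.3) with 8 residual degrees of freedom over all 4 groups, after a filter of 0.5 FPKM in 3 libraries, with Benjamini-Hochberg adjustment at 0.05. The fit was tested on simulated data. The members and lists were chosen with earlier results of these data known. Some genes, such as Hp, Il6 and Csf3, stand in more than 1 list, so the list counts are not independent. Named genes are the largest and most significant changes, the largest shifts of mean FPKM and, per list, the called members of smallest p in each direction. All but the list members had to show no overlap between the groups. The largest and most significant changes also needed a minimum mean level in the higher group and a symbol not of a predicted gene. Except among shifts of mean FPKM, genes named in an earlier analysis of these data were left out. Marker genes, and genes given as members that did not pass or as counterparts of a named gene, were added after their values were seen. For a few genes that met these rules no result is reported here. Alternatives were other scalings, pseudocounts of 0.1 and 1, no filter, the 6 wild-type libraries alone, a replicate block, library weights, voom, removal of the length trend, a minimum change of 1 and leaving out each library.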

Additional observations from a re-analysis of the deposited data

Results flagged for a closer look

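In 3 genes the Salmonella effect differed between wild-type and knockout hosts by the test of the difference itself (limma, Benjamini-Hochberg adjustment). They were named after their values were seen, because they are the whole of that count. The effect in wild-type minus that in knockout hosts was 2.82 on the log2 scale for Fabp7 (SE 0.37, adjusted p = 0.0266), 2.13 for Pf4 (SE 0.23, adjusted p = 0.00874) and 2.32 for Tmem40 (SE 0.26, adjusted p = 0.00874). Fabp7 was at 4.18 ± 1.36 FPKM under Salmonella in wild-type hosts and at 0.257 ± 0.136 FPKM in knockout hosts (SD, n = 3). Tmem40 was at 4.21 ± 0.603 and 1.25 ± 0.207 FPKM in the same groups (SD, n = 3). Fabp7 reached the level for testing only through the 3 Salmonella libraries of wild-type hosts and was not tested when any of them was left out. In voom 0 genes passed this test, with 1477 at an unadjusted p under 0.05.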

How the results depend on the processing

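The 4329 called genes became 2442 (1346 higher, 1096 lower) with only the 6 wild-type libraries, 7136 (3647 and 3489) with library weights and 83 (81 and 2) with the change tested against a floor of 1 (log2). FPKM as deposited gave 1500 higher and 3365 lower, or 30.8% higher against 52.2%. Leaving out a library of any group gave 2049 to 6220 calls, 1074 to 3211 higher and 975 to 3009 lower. The count moved by over 1.5 times without PBS M-1 (2803), PBS M-2 (2375), Salmonella F-1 (2049) or Salmonella M-1 (2270). The count for the difference between genotypes, 3, became 6 with FPKM as deposited, 0 in voom, 3134 with library weights, and 2 to 2237 without a library, the highest without Salmonella M-2. Library weights for that difference, and scaling over all genes above 0 (2086 higher, 2335 lower), were chosen after seeing the data. With the replicate block 4234 genes were called (2230 and 2004) and 4 for the difference between genotypes. Same-label wild-type libraries had correlations of deviations of 0.036, 0.003 and -0.03, so the numbers are not taken to pair the samples. Of 236 named genes 0 reversed in any setting run. Of these, 76 lost the call under at least 1 alternative other than the minimum change, and 67 lost it without at least 1 wild-type library. The causes were not tested. Depth limits genes near 3 fragments, and 3 libraries a group limit the rest.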
